A study of Mus musculus with 4 samples.

Results

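This account concerns 512 DNA probes of an antibody-binding array, out of 6126 probe names in all. They form a pair of libraries built on an E-box, the recognition site of the transcription factor MITF. The first library carries a changed version of the site (MITF_Ex_sebox_59 in the files) and the second carries the intact E-box (MITF_Ex_ebox_59). All are 59 bases long, and in each library 4 neighbouring bases run through every combination of A, C, G and T. Members were found by the start of the probe name, and each changed probe was paired with the E-box probe that has the same 4 varied bases. The labels used here do not explain "Ex" or the "s" of "sebox".

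The study measured antibody binding to photoproducts on irradiated (UV) and non-irradiated (non-UV) DNA arrays. An antibody against cyclobutane pyrimidine dimers (CPD) was used at a dilution of 1 in 400 on 1 UV array and 1 non-UV array. An antibody against 6-4 photoproducts (6-4PP) was used at 1 in 80 on 1 UV array and 1 non-UV array. The items measured are synthetic DNA, with no cells, and the labels give the organism as mouse. The titles of the 2 arrays with the 6-4PP antibody name the opposite condition from the array condition field, and the field was followed. The array read here as irradiated was brighter for every one of the 512 probes.

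MITF is a basic helix-loop-helix leucine zipper factor that governs pigment cell genes and binds E-boxes with the core CACGTG. That core reads the same on both strands and holds no neighbouring pyrimidines. Ultraviolet light joins neighbouring pyrimidines, most often TT or TC, into CPD or 6-4PP, so the core itself offers none of these targets. The libraries allow the question whether antibody signal from dipyrimidines in the varied bases depends on the neighbouring site being intact or changed.

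The changed probe differs from its E-box partner by the substitutions C10T and A11G in every pair, where the base before the position is that of the E-box probe and positions count from 1 at the 5′ end. The site occupies positions 10 to 15 and the varied bases positions 17 to 20. The base C stands between them, and T follows the varied bases. The pairs on which the results turn are printed 5′ to 3′, with the 6 bases of the site and the 4 varied bases in capitals. CTTT and CTTA differed on the non-irradiated 6-4PP array, GACT and AACA on the irradiated 6-4PP array, and E-box TGTG was the dimmest probe there.
CTTT changed: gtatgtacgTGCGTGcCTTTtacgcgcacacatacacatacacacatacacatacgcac
CTTT E-box: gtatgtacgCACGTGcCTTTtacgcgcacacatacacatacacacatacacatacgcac
CTTA changed: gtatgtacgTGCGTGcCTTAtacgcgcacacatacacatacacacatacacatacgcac
CTTA E-box: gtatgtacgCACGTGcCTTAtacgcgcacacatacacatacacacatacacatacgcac
GACT changed: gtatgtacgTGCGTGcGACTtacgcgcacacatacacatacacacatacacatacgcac
GACT E-box: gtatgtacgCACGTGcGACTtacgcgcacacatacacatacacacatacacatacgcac
AACA changed: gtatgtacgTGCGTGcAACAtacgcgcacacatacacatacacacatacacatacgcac
AACA E-box: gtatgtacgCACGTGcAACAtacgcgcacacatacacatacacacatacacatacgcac
TGTG changed: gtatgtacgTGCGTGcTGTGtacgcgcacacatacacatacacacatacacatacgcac
TGTG E-box: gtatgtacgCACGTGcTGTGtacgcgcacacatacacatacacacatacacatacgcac

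The substitutions neither make nor remove a dipyrimidine. Counted on both strands and outside the 10 bases of the 3′ end, each type (TT, TC, CT, CC) occurred equally often in both probes of every pair. There was 1 dipyrimidine in 80 pairs, 3 in 160 pairs and 5 in the 16 pairs whose varied bases are all pyrimidines. The site does lose its symmetry. Around its centre, E-box probes read the same on both strands over 8 bases in 192 pairs and over 10 to 16 bases in the 64 pairs whose varied bases begin with G, against 2 bases in every changed probe.

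Each probe had 10 replicate spots on an array, and its value is the median fluorescence intensity of the unflagged spots, in the arbitrary linear units of the deposited files. Differences are changed minus E-box, as the log2 ratio of the 2 medians. Each pair was tested with an exact two-sided permutation test on the mean log2 intensity of its spots. Adjusted p-values are Benjamini-Hochberg over the 2560 pairs of all 10 library pairs on the array that have an intact and a changed site, and a pair is called when the adjusted p is under 0.05. Such a test compares spots that share 1 irradiation and 1 hybridisation. It says nothing about repeat arrays, and no p-value was computed between conditions. The median SD of log2 intensity over the spots of a probe was 0.54 for changed and 0.59 for E-box probes on the CPD UV array, and 0.27 and 0.29 on the 6-4PP UV array. Intensity on the CPD UV array also varied by place, with local medians from 1111 to 8004 across it. The deposited spatially adjusted intensity, which divides this out, brought the median spot SD there to 0.31 for both libraries. Values on that array are from the unadjusted column unless the adjusted intensity is named.

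On irradiated DNA the 2 libraries ranked the varied bases almost alike. On the 6-4PP UV array the changed library had a median of 14191.2, with probes from 4006 to the ceiling of 65535, against 13996 and 2635 to 65535 in the E-box library. The log2 levels of changed and E-box probes there correlated with a Pearson r of 0.98 over all pairs, whose 2 probes share their varied bases. On the CPD UV array the medians were 4430.25 in the changed library, with probes from 1249.5 to 17088.5, and 4185.75 in the E-box library, with probes from 1055.5 to 15471.5. The correlation of levels was 0.88 there and 0.97 with the adjusted intensity. The highest probe was 13.7 times the lowest in the changed library and 14.7 times in the E-box library with the CPD antibody, and by the adjusted intensity these ratios were 8.98 and 9.20.

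Median UV minus non-UV differences on the log2 scale were 7.19 for changed and 7.14 for E-box probes with the CPD antibody. With the 6-4PP antibody they were 7.88 for changed and 7.76 for E-box probes. These are values of 1 array against 1 array by the unadjusted column, include any difference in scanner gain, and were not tested. In the changed library the lowest were CCCC at 5.38 with CPD and TAGC at 5.97 with 6-4PP. In the E-box library they were CCCG at 5.32 with CPD and TGTG at 5.46 with 6-4PP. The next lowest with CPD were AGCG at 5.70 in the changed library and CCCA at 5.42 in the E-box library, and with 6-4PP they were TGTA at 6.06 in the changed library and AACA at 5.86 in the E-box library.

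Signal rose with the number of dipyrimidines in both libraries, on irradiated and on non-irradiated DNA. On the 6-4PP UV array, changed probes with 1, 3 and 5 dipyrimidines had medians of 7111.25, 18104.2 and 31892.2, and E-box probes had 6361.75, 17524.2 and 34701. On the CPD UV array the medians were 3051.25, 5002 and 8079.25 in changed probes and 2541.5, 4733.75 and 6501.25 in E-box probes. By the adjusted intensity that array had 3304.62, 5147.84 and 7774.91 in changed probes and 2928.76, 4840.78 and 7704.91 in E-box probes.

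Without irradiation the steps were small in intensity units. With the CPD antibody the non-UV medians for 1, 3 and 5 dipyrimidines were 29, 31 and 38.25 in changed probes and 28.75, 31 and 36 in E-box probes. With the 6-4PP antibody they were 60, 62.25 and 67.75 in changed probes and 59.25, 65.25 and 82.25 in E-box probes. Across the probes of a library, log2 level and dipyrimidine number correlated with CPD at a Pearson r of 0.39 in both libraries on irradiated DNA, and at 0.44 in changed and 0.41 in E-box probes on non-irradiated DNA. With 6-4PP r was 0.60 in changed and 0.62 in E-box probes on irradiated DNA, and 0.39 and 0.55 on non-irradiated DNA. For the CPD antibody r was thus no lower without irradiation, as a description of these probes, which share most of their sequence. The rise itself was smaller. From 1 to 5 dipyrimidines changed medians went from 3051.25 to 8079.25 on irradiated and from 29 to 38.25 on non-irradiated DNA. E-box medians went from 2541.5 to 6501.25 and from 28.75 to 36. The r on the CPD UV array is from the unadjusted column, whose spots varied widely.

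Probes with a single dipyrimidine were grouped by its type. Type and place were not separated. Some CC, CT and TT include the fixed C before or the fixed T after the varied bases, while TC always lies within the varied bases. The 12 pairs with 1 TC, the favoured target of 6-4PP formation, had medians of 16318.8 in changed and 16987.2 in E-box probes on the 6-4PP UV array. The 20 pairs with 1 TT had 9503.75 and 9514.5 there, the 20 with 1 CC had 6724.5 and 5959.25, and the 28 with 1 CT had 5638 and 5023.75, each with changed probes first. With the CPD antibody TT was brightest, at 6067 in changed and 5734.5 in E-box probes. TC followed at 3472.5 and 3612, CT at 2968.75 and 2497.75, and CC at 2156.25 and 2073.25, again changed before E-box. The adjusted intensity with CPD kept this order, with 7386.38 in changed and 6774.64 in E-box probes at TT, 4003.71 and 3717.49 at TC, 3164.68 and 2881.38 at CT, and 2401.57 and 2152.71 at CC. The order of the 4 types was thus the same in both libraries under each antibody and differed between the antibodies. Among pairs with 1 CT on the 6-4PP UV array, changed probes were the brighter in 23 of 28, with a median difference of 0.20, but no such pair was called.

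By the unadjusted intensity the brightest probes on the CPD UV array carried T runs or, on the opposite strand, A runs. TTTT was highest in both libraries, at 17088.5 in changed spots that ran from 14188 to 22419 and at 15471.5 in E-box spots that ran from 9768 to 16455. ATTT had 14266.5 and 13067.5, TTAT reached 14509 in the changed library and TAAT 12242 in the E-box library. The dimmest probe of each library was rich in C. CCCC was lowest in the changed library at 1249.5, with spots from 846 to 4144, against 2255 in its E-box partner, whose spots ran from 730 to 4460. CCCG had 1990.5 in the changed library, against 1055.5 in the E-box library, the lowest there. The spots of these pairs overlapped widely, and neither was called. With the adjusted intensity the differences of CCCC and CCCG were -0.14 and -0.04, so the sign of CCCG turned. The ranks changed as well. By that column AAAT was highest at 16893.4 and CCCG lowest at 1881.07 in the changed library, and TTAT was highest at 15516 and CCCA lowest at 1686.29 in the E-box library. TTTT then stood at rank 2 from the top in the changed library and at rank 4 in the E-box library, and CCCC at rank 16 from the bottom in the changed library and at rank 39 in the E-box library.

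The next dimmest were AGCG and CATA in the changed library, at 1431.5 and 1572.5, and CCCA and TGTG in the E-box library, at 1218.5 and 1357.

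On the 6-4PP UV array 8 changed and 9 E-box probes had medians at the ceiling, where values are lower bounds and have no order. The 8 changed probes, among them TTGA and TTAA as well as TGAT, all had a partner at the ceiling, and GATT reached it in the E-box library alone. In 233 pairs no spot reached the ceiling.

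Few pairs were called on irradiated DNA. With the CPD antibody 0 pairs were called higher and 0 lower on the unadjusted intensity, where 0.0781% of the 2560 pairs were called in each direction. An unadjusted p under 0.05 in the exact permutation test was found in 26 pairs, of which 25 were higher in the changed probe. That is 10.2% of the pairs, where 214 of all 2560 pairs (8.36%) had such a p, so the total was near the background. The direction differed from it, with 25 higher and 1 lower here against 127 higher and 87 lower of all 2560. By the adjusted intensity these counts were 39 and 1 against 242 and 147. This difference in direction was not tested. The median difference was 0.12, and 176 pairs were higher and 80 lower in the changed probe, against a median of 0.03 and 1370 higher of all 2560 pairs. By the adjusted intensity the median was 0.13, 184 pairs were higher and 72 lower, and 3 were called higher and 0 lower, beside backgrounds of 1.05% and 0.508%.

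The 3 pairs called with the CPD antibody by the adjusted intensity were GACA, GGTA and CACC, named after their values were seen. Their differences were 0.34 (exact permutation test, adjusted p = 0.0092), 0.48 (adjusted p = 0.014) and 0.32 (adjusted p = 0.038). On the unadjusted scale GACA had a median of 3169 in changed spots, from 1869 to 5375, and of 2562 in E-box spots, from 762 to 3243. The groups of spots overlapped, and the unadjusted difference of 0.31 was not called (exact permutation test, adjusted p = 0.60). Local brightness accompanied the pair differences on this array. Across the pairs, the unadjusted difference of mean log2 intensity correlated with the difference in local median at a Pearson r of 0.86, and pair differences by the 2 columns correlated at only 0.13. The local medians are taken from neighbouring spots, and their part in single differences was not tested beyond the use of the adjusted column.

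With the 6-4PP antibody on irradiated DNA the median difference was 0.00, with 127 pairs higher, 121 lower and 8 equal. Over all 2560 pairs the median was -0.012. The changed probe was called higher in 1 pair and lower in 2, where the backgrounds over all library pairs were 7.93% and 2.42%. The adjusted intensity also gave 1 and 2, beside 8.48% and 2.54%, with CGAC in place of AACA as the higher pair. At an adjusted p under 0.01, 0 were called higher and 1 lower, beside 5.43% and 0.547%. The closest other libraries were low as well. At an adjusted p under 0.05 on the unadjusted intensity, 1.17% of the pairs described here were called in all. That share was 1.56% in the 60-base MITF Ex libraries and 2.34% in the 59-base MITF libraries, beside 10.4% of all 2560 pairs.

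GACT, whose varied bases place TC, CT and TT on the 2 strands, was lower in the changed probe. Its changed spots ran from 23597 to 31668 with a median of 28229.5, and its E-box spots from 29603 to 43226 with a median of 39672.5. The ranges touched only at their edges. The difference was -0.49, with a mean log2 difference of -0.41 ± 0.083 (SE, 10 spots each; exact permutation test, adjusted p = 0.0066), and with the adjusted intensity it was -0.26 (adjusted p = 0.0079).

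GTTC was lower as well, with changed spots from 10159 to 15990 around a median of 11971 and E-box spots from 12443 to 26773 around 14753.5. The spots overlapped, and the difference of -0.30 was called (exact permutation test, adjusted p = 0.033). By the adjusted intensity it was -0.44 (exact permutation test, adjusted p = 0.0055). The changed probe had 9 unflagged spots, and the unadjusted call was lost in 8 of 10 fits that left out 1 replicate spot.

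AACA, which holds 1 dipyrimidine, a TT on the opposite strand, was the pair called higher. Its changed spots ran from 3128 to 14629 around a median of 7303.5, and its E-box spots from 2438 to 5538 around 3600.5. The difference was 1.02 (exact permutation test, adjusted p = 0.037), and with the adjusted intensity it was 0.54 and not called (adjusted p = 0.20). These sequences were also printed a second time under other names, and there the medians were 5441 in the changed and 5163.5 in the E-box spots, a difference of 0.076.

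TGTG had a median of 5170.5 in changed spots that ran from 3165 to 9314 on the 6-4PP UV array. Its E-box probe had 2635, the lowest median of all 6126 probes there, with spots from 1850 to 13490. The difference of 0.97 was not called (exact permutation test, adjusted p = 0.38), and the E-box spots covered the whole range of the changed spots. TAGC at 4006, TGTA at 4138 and GCTA at 4529 were the dimmest of the changed library, and AGTA, at 3758.5, followed TGTG and AACA in the E-box library.

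Pairs whose varied bases are 4 copies of a base were not called on either UV array. On the CPD UV array the differences were 0.17 for AAAA, -0.85 for CCCC, 0.21 for GGGG and 0.14 for TTTT. By the adjusted intensity they were 0.50, -0.14, 0.19 and 0.20 in the same order. On the 6-4PP UV array they were -0.07, -0.10, 0.08 and -0.23 in the same order. The signs of AAAA on both UV arrays and of GGGG with 6-4PP turned under other settings.

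Pair differences were also set side by side between the antibodies. On irradiated DNA they correlated across pairs at a Pearson r of 0.38 on the unadjusted intensity and at 0.12 on the adjusted intensity. The points share their positions on the array between antibodies, since the layout was the same.

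The largest number of called pairs was found on DNA that had not been irradiated, with the 6-4PP antibody. The median SE of a pair difference was 0.068 there and 0.26 with CPD on irradiated DNA, so counts of calls do not rank the arrays. In all, 14.1% of the pairs of these 2 libraries were called with 6-4PP on non-irradiated DNA, beside 14.6% of all 2560. The total was thus near the background, and the direction of the calls differed from it. The changed probe was lower in 33 pairs and higher in 3, where 4.49% of all 2560 pairs were called lower and 10.2% higher. The adjusted intensity gave 38 lower and 3 higher, beside backgrounds of 5.16% and 10.8%, and 28 pairs were called lower with both columns. At an adjusted p under 0.01, 14 were lower and 0 higher, beside 1.72% and 3.4%. The median difference over all pairs of these 2 libraries was -0.06, with 171 pairs lower and 75 higher, against a median of 0 and 1188 lower and 1269 higher of all 2560 pairs. This signal was dim. Medians ran from 53.5 to 80 in the changed library and from 51 to 97 in the E-box library. In the 33 pairs called lower, the changed probe was lower by a median of 15 intensity units.

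Levels varied more among E-box probes than among changed probes on this array, as a description with no test. The SD of log2 level was 0.10 over changed probes and 0.19 over E-box probes. The median SD over the spots of a probe was 0.15 in the changed and 0.14 in the E-box library. Levels of changed and E-box probes correlated at a Pearson r of 0.66 over all pairs, beside 0.98 on the 6-4PP UV array.

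The 16 pairs with pyrimidines at all 4 varied positions had bright E-box probes. Their medians ran from 59 to 73 in changed probes and from 72 to 97 in E-box probes. All 16 were lower in the changed probe, with a median difference of -0.31, and 11 were called. With the adjusted intensity all 16 were again lower and 13 were called. On the UV arrays none of these 16 pairs was called, and their median differences were 0.12 with CPD and -0.06 with 6-4PP, and 0.02 and -0.02 by the adjusted intensity. By the unadjusted intensity only 4 of all 2560 pairs were called on the CPD UV array, so the absence of calls there says little.

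CTTT gives an example. Its changed spots ran from 62 to 78 with a median of 68, and its E-box spots from 70 to 103 with a median of 97, the highest of the E-box library. The spots overlapped little, and the difference was -0.51 (exact permutation test, adjusted p = 0.0027). On the CPD non-UV array the same pair had medians of 44.5 in both probes. On the CPD UV array it had 12187.5 in changed and 11392.5 in E-box spots, a difference of 0.10, and of -0.13 with the adjusted intensity, and neither was called.

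The pairs named next were picked after their values on the non-irradiated 6-4PP array were seen, as the 5 lowest and the 3 highest called differences, and CTTT is among them. CCTT had the most negative difference, -0.52, with a median of 65 in changed spots that ran from 53 to 75 and of 93 in E-box spots that ran from 75 to 105. CAAT followed at -0.45, with 63 in changed and 86 in E-box spots, although its middle bases are purines. CTTA had changed spots from 63 to 79 around 71 and E-box spots from 82 to 113 around 96.5, and CTTC had 64 to 81 around 67 and 82 to 98 around 91. In these 2 pairs the changed and E-box spots did not overlap. Their differences were -0.44 in both (exact permutation test, adjusted p = 0.0021 each).

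The 3 pairs that were higher in the changed probe were GGAA, TACG and GTGA. GGAA had 65 in changed spots, from 55 to 73, and 56 in E-box spots, from 49 to 63, a difference of 0.22 (exact permutation test, adjusted p = 0.013). TACG had 65 and 57, and GTGA 65 and 57.5, with changed before E-box. None of the 3 was called with the adjusted intensity, where 3 other pairs were, GACG, GGCA and GGGA, all with G at the first varied position.

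The first varied base divided the pairs on this array. With G there, next to the C that follows the site, changed probes were higher in 42 of 64 pairs and lower in 18, with medians of 59.75 in changed and 57.25 in E-box probes. With C there, changed probes were higher in 5 and lower in 58 of 64 pairs, with medians of 64 and 68.5. Pairs with A or T there were mostly lower too, with A higher in 15 and lower in 47, and T higher in 13 and lower in 48. G thus stood apart from the other bases. Of the 33 pairs called lower, 21 began with C and 0 with G, and 22 ended in T. Either a C at the start or a T at the end was present in 32 of the 33, against 112 of all pairs (43.8%). With the adjusted intensity it was present in 30 of the 38 called lower. All 64 pairs that begin with G are also those whose E-box probe stays symmetrical beyond 8 bases.

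The 33 pairs were brighter than their libraries on the other arrays. They were rich in dipyrimidines, since 1 of them held 1, 21 held 3 and 11 held 5. Most ended in T, and all pairs ending in T had CPD UV medians of 8776.25 in changed and 8493.5 in E-box probes. The library medians below are thus not those of probes with like varied bases. With the CPD antibody on irradiated DNA they had medians of 8181.5 in changed and 8035 in E-box probes, beside library medians of 4430.25 and 4185.75. With the 6-4PP antibody on irradiated DNA they had 27127.5 and 27134.5, beside 14191.2 and 13996, and with the CPD antibody on non-irradiated DNA 37.5 in both probes, beside 30.5. Their median pair differences are given next to those of all pairs of the 2 libraries. With CPD on irradiated DNA the difference was 0.04 beside 0.12, with 0 called. With CPD on non-irradiated DNA it was 0.05 beside 0.02, and 2 of the 3 pairs called lower there were among the 33. With 6-4PP on irradiated DNA it was -0.03 beside 0.00, with 0 called.

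On non-irradiated DNA the CPD antibody gave medians of 30.5 in both libraries, with probes from 25 to 53.5 in each. There 1 pair was called higher and 3 lower in the changed probe, where 1.91% and 0.391% of all library pairs were called. The adjusted column gave 2 higher and 1 lower pair, beside 4.22% and 0.664%. AGGT was the higher one, with 36.5 in changed and 30.5 in E-box spots. AAAT, with 35 and 45.5, TGAT, with 34 and 40, and ATCT, with 33 and 38.5, were lower in the changed probe. These 4 were named because the count is small, after the values were seen. AAAT alone of them was also called by the adjusted intensity, at -0.27 (exact permutation test, adjusted p = 0.0016).

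A second set of spots on the same arrays allowed a check. The 64 pairs whose last varied base is A have the same sequences as 64 pairs of the MITF_sebox_59 and MITF_ebox_59 libraries, in which the varied bases begin 1 position earlier, so each such sequence was printed on 10 further spots. On the non-irradiated 6-4PP array the pair differences of the 2 printings correlated at a Pearson r of 0.71 over 64 pairs, and 44 of 64 had the same sign. All 7 pairs called in the first printing had the same sign in the second, but not all were called again. CCAA was called again with a difference of -0.30 in the second printing, and so was CCTA at -0.34. The call was lost for CCGA at -0.045, for CTAA at -0.076, beside -0.30 in the first printing, and for GTGA at 0.15. CTTA had 71 in changed and 95 in E-box spots of the second printing, a difference of -0.42 (exact permutation test, adjusted p = 0.0021), beside -0.44 in the first. GGAA had 57 in changed and 56 in E-box spots of the second printing, a difference of 0.026 that was not called either.

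On irradiated DNA the printings were less alike. Pair differences of the 2 printings correlated at a Pearson r of 0.10 on either UV array over 64 pairs, and at 0.13 with CPD and 0.23 with 6-4PP by the adjusted intensity. The sign was the same in 33 of 64 pairs with CPD and in 43 with 6-4PP. The direction of the CPD median was seen in both printings, at 0.17 in the first and 0.11 in the second. By the adjusted intensity, 48 of 64 pairs had the same sign with CPD.

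The closest other libraries gave the following values on the non-irradiated 6-4PP array, side by side. The 60-base MITF Ex libraries carry the same sites and a longer 3′ side, and there the median difference was -0.07, with 47 pairs called lower and 2 higher. In the 59-base MITF libraries, where the base C after the site is part of the varied stretch, the median difference was 0.06, with 9 pairs called lower and 16 higher. The 16 pairs with 4 pyrimidines were all lower in the changed probe in the 60-base Ex libraries too, where 10 were called. In the 59-base MITF libraries 8 were lower and 7 higher, and 3 were called lower. That set is not alike, since no fixed pyrimidine adjoins the varied bases there and its probes hold fewer dipyrimidines. Differences between these library pairs were not tested. On the CPD UV array the adjusted intensity gave medians of 0.13 in the pairs described here, 0.14 in the 60-base Ex pairs and 0.06 in the 59-base MITF pairs.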

How the data were processed

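Antibody binding was measured on 4 arrays, 1 for each antibody and condition, grouped by the array condition field. The deposited intensity values are linear Alexa488 fluorescence of single spots, per the file headers, and the 2 libraries made 256 pairs. They hold a column of intensity without flagged spots, which equalled the raw intensity at every unflagged spot, and an adjusted intensity, which equalled it times the array median over the local median. Cy3 held 1 throughout and gave no correction for DNA amount. For scanner, UV dose and software, the sources used here give nothing.

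The value of a probe was the median of its unflagged spots. In the 2 libraries, flags marked 61 changed and 52 E-box spots with 6-4PP on non-irradiated DNA, 19 and 10 with 6-4PP on irradiated DNA, and 0 with CPD. The exact permutation test took pairs with at least 3 spots a probe, and the smallest p it allows with 10 spots against 10 is 1.1e-05. It was checked on simulated spots, drawn independently with no effect of place, no flags and no ceiling, so the check does not cover these features of the arrays. Named pairs are, on each UV array, the 5 largest called differences in each direction and the 4 pairs of a repeated base, then the 3 brightest and 3 dimmest probes of each library and the 2 lowest UV minus non-UV differences. The members, groupings and tests were chosen with earlier results of these data known. Python 3.11.15, numpy 2.4.6, pandas 2.3.3 and scipy 1.17.1 were used. The alternatives tried were: adjusted intensity, a linear mean over spots, keeping flagged spots, leaving out each replicate spot, a threshold of 0.01, the titles of the 6-4PP arrays, pairs with equal dipyrimidine numbers, pairs without a ceiling spot, and, chosen after seeing the data, the second printing of the same sequences. The number of arrays limits the precision.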

Additional observations from a re-analysis of the deposited data

How the results depend on the processing

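Across the alternative runs, the median difference between changed and E-box probes ranged from 0.10 to 0.14 on the CPD UV array. It ranged from -0.0047 to 0.0031 on the 6-4PP UV array and from -0.072 to -0.055 on the 6-4PP non-UV array. The CPD median on non-irradiated DNA, 0.02, ranged from -0.00078 with the adjusted intensity to 0.042 in a fit without 1 replicate spot. Counts of calls are small and moved as well. With the adjusted intensity, pairs called higher in the changed probe numbered 3 with CPD on irradiated DNA and 2 with CPD on non-irradiated DNA, where 1 was lower. With the linear mean, 0 were called higher on the CPD non-UV array. At an adjusted p under 0.01, 0 were higher and 0 lower on the CPD non-UV array, 0 higher and 1 lower on the 6-4PP UV array, and 0 higher and 14 lower on the 6-4PP non-UV array, with a background of 1.72% lower there. Leaving out each replicate spot in turn gave 22 to 30 lower and 1 to 3 higher pairs on the 6-4PP non-UV array, 1 to 3 lower and 0 to 3 higher on the 6-4PP UV array, 1 to 3 lower and 0 to 1 higher on the CPD non-UV array, and 0 in each direction on the CPD UV array. The shares over all 2560 pairs in these fits are not given here. In the main fit 4.49% were lower and 10.2% higher on the 6-4PP non-UV array, and 2.42% and 7.93% on the 6-4PP UV array. They were 0.391% and 1.91% on the CPD non-UV array, and 0.0781% in each direction on the CPD UV array. By the titles of the 6-4PP arrays the median UV minus non-UV differences become -7.88 for changed and -7.76 for E-box probes. The difference of AAAA turned to -0.0060 with CPD under the linear mean and to 0.010 with 6-4PP under the adjusted intensity, and that of GGGG turned to -0.032 with 6-4PP under the linear mean. The cause was not tested. AACA and GTTC on the 6-4PP UV array, and TACG and GTGA on its non-UV counterpart, each lost their call in 8 of the 10 fits without 1 replicate spot, and AACA also lost it with the adjusted intensity and in the second printing. Every pair had equal dipyrimidine numbers, so that alternative changed nothing. No paired analysis was possible because each antibody and condition had 1 array, so no replicate samples could be paired across groups.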
